A study of Mus musculus with 30 samples.

Results

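The regions described here are 1073 distal sites in mouse leukaemia cells that lay in a Menin peak of vehicle-treated cells and in a UTX peak of inhibitor-treated cells. They are the Menin DMSO peaks on chromosomes 1 to 19 whose summit was over 3 kb from the start and end of every RefSeq gene, coding or not, and that shared at least 1 bp with a UTX MI-503 peak. They made up 9.77% of the 10982 Menin DMSO peaks on those chromosomes, of 11195 in all. The libraries came from WT-MA9, a cell line of mouse acute myeloid leukaemia in which a retroviral pMSCV construct gives stable expression of MLL-AF9 and GFP. All cells grew with IL6, IL3 and SCF, and were harvested 4 days after addition of MI-503, an inhibitor of the binding of Menin to MLL1, or of the DMSO vehicle. Peak lists were used for UTX after MI-503, Menin after MI-503, UTX after DMSO and Menin after DMSO, each from 1 library of this 1 line, so no difference between treatments has a replicate check. Each region thus joins 2 libraries that differ in both antibody and treatment, and those were called against different vehicle inputs.

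Menin is a scaffold that tethers the MLL1 and MLL2 histone H3 lysine 4 methyltransferases to chromatin, and leukaemias driven by MLL fusions depend on it. UTX, also named KDM6A, removes methyl groups from histone H3 lysine 27 and is a subunit of the MLL3 and MLL4 complexes, which act mainly at enhancers. A peak far from the ends of a gene can mark an enhancer, but also a promoter used inside a gene. Sequence elements known to sit close to mammalian starts include CCAAT, the binding site of NF-Y, and GGAAGT, an ETS core.

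Of the regions, 254 lay within 1 kb of a RefSeq transcription start inside a gene, that is, a start other than the gene's outermost one. The strongest of these are shown as sequence because their letters can be set beside the summits. The 8 stretches are the 200 bases before the start for the genes of the 6 regions highest in UTX MI-503 and the 4 highest in Menin DMSO among those at internal starts. They are read 5′ to 3′ on the gene's strand from RefSeq, GRCm38.p6. Capitals mark CCAAT or its reverse complement ATTGG, and GGAAGT or its reverse complement ACTTCC.
Per1, plus strand, chr11:69098749-69098948: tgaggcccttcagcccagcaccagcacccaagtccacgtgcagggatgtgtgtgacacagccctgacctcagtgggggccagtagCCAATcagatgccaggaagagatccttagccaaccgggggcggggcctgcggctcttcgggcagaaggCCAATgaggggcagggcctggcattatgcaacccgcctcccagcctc
Cnnm2, plus strand, chr19:46761409-46761608: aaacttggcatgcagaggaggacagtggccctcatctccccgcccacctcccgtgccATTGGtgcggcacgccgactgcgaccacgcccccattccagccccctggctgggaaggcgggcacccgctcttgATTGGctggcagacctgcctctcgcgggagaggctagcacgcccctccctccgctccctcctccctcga
Hdac4, minus strand, chr1:92180342-92180541: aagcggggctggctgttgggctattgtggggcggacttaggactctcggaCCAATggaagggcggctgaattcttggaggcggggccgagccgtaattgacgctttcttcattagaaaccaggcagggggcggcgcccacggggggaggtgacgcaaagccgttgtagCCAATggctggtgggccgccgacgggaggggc
Cops3, minus strand, chr11:59839768-59839967: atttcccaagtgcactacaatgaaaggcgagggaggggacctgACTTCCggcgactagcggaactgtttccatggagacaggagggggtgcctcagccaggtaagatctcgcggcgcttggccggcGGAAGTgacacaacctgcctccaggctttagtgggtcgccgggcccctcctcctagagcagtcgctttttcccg
Midn, plus strand, chr10:80149482-80149681: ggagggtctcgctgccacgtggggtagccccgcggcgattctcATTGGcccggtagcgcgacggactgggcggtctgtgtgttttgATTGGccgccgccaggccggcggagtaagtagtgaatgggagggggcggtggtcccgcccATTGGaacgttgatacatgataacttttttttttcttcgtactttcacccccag
Pcgf5, plus strand, chr19:36409548-36409747: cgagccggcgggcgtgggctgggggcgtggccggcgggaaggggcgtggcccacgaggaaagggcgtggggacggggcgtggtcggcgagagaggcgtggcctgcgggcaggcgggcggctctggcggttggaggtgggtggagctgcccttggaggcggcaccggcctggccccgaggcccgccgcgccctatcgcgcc
Gatad2a, minus strand, chr8:69974384-69974583: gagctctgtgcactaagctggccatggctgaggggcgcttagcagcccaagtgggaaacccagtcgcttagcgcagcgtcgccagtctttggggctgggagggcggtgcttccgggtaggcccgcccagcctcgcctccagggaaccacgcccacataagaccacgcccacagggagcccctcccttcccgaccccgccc
Tef, plus strand, chr15:81811214-81811413: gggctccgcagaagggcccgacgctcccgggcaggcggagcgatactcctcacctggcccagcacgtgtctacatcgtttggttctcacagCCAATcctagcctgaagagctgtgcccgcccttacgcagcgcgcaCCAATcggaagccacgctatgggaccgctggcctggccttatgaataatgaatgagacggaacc
All 8 stretches lay inside a Menin peak of the set. CCAAT stood in 5 of them, at 11 places that began 32 to 157 bases before the start. Per1, Cnnm2, Hdac4 and Tef held a pair each and Midn held 3, while Cops3 held a pair of ETS cores and Pcgf5 and Gatad2a held neither. The stretches were picked for high signal, so their count gives no rate for the regions. In the longer windows counted below, CCAAT was about as frequent at internal starts with a region (35.9%) as without a peak (35.7%). Among the CpG-rich starts described there, CCAAT was in 35.0% and 21.4%. In Per1, the UTX summit lay 98 bases before the start, between sites that began 115 and 47 bases before it. In Midn, the UTX summit lay 115 bases before the start, 1 base from the middle CCAAT, which began 114 bases before it. In Tef, by contrast, the CCAAT sites lay 318 and 363 bp downstream of the UTX summit, and in Cops3 the ETS cores lay at −487 and −570 bp from it, negative being upstream.

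Distal Menin peaks were shared with UTX less often than Menin peaks near genes, which is what the rule selected on and is given as a description. A UTX MI-503 peak covered 33.6% of the 3192 distal Menin peaks (exact 95% interval 32.0 to 35.3%) and 80.0% of the 7790 Menin peaks within 3 kb of a gene boundary (79.1 to 80.9%). The share over all Menin peaks was 66.5%. Intervals cover counting error only, and neighbouring peaks are not independent. Read from the UTX side, 29.9% of the 3647 distal UTX MI-503 peaks carried a Menin DMSO peak. The share of distal Menin peaks with UTX was 7.5% in the lowest decile by Menin −log10 q, 28.5% in the fifth and 75.9% in the highest. The 1073 regions held 1056 separate UTX peaks, so a few broad UTX peaks each spanned more than one Menin peak.

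The regions were narrow and their summits lay close together. Because the rule requires overlapping peaks, a short distance between summits is largely set by it and is given as a description. The UTX peaks had a median width of 290 bp and the Menin peaks 275 bp, and their summits were a median of 39 bp apart (quartiles 15 and 79 bp). Summits lay within 50 bp of each other in 58.2% of the regions. At the 6235 shared peaks near genes, picked by the same overlap, the distance was also 39 bp, with 59.1% within 50 bp. Fold enrichment, which here and below is the authors' own value for the summit against the input, had a median of 7.80 for UTX (quartiles 6.12 and 11.3) and 6.11 for Menin (4.73 and 8.42). Near genes the shared peaks had higher medians, 11.4 for UTX and 7.27 for Menin. Distal Menin peaks without UTX had a median Menin fold of 4.57, and distal UTX peaks without Menin a median UTX fold of 5.84.

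These folds rest on few fragments. The pileup at the summit had a median of 16 fragments for UTX in MI-503, for which counting alone gives a 95% Poisson interval of 9.15 to 26.0, and of 32 for Menin in DMSO (21.9 to 45.2). The log2 folds of both proteins followed each other loosely over the 1073 regions, with a Pearson correlation of 0.33 and a Spearman correlation of 0.29. Both come from 1 library each and share the chromatin at a site, so these are descriptions of 2 libraries. A set of 71 regions (6.62%) lay where the background recovered from the Menin list was at least 3 times the lowest of that list, here called input-rich ground. On the UTX list, 40 regions (3.73%) did.

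**Figure D1:**
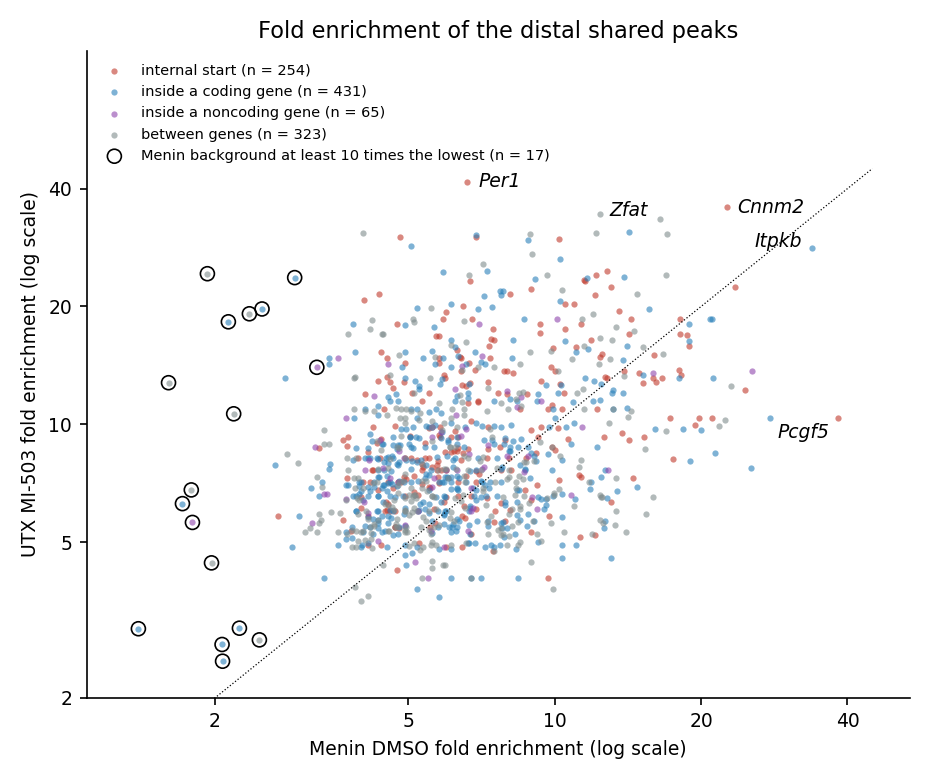
Fold enrichment of the 1073 distal shared peaks in UTX MI-503 (vertical, log scale) and Menin DMSO (horizontal, log scale), coloured by place, with the line of equal fold dotted. The rings mark 17 peaks whose Menin background was at least 10 times the lowest, all with Menin folds of 3.24 or less, a range that also holds 14 peaks on lower backgrounds.

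Starts of transcripts inside genes were more frequent at the regions than at other distal peaks. Of the 1045 regions on chromosomes covered by the RefSeq start table, 254 lay within 1 kb of such a start, which is 24.3% (21.7 to 27.0%). Among distal Menin peaks without UTX the share was 3.09% of 2041 (2.38 to 3.93%), and among distal UTX peaks without Menin it was 7.13% of 2456 (6.14 to 8.22%). Over all distal Menin peaks it was 10.3%. The higher share with UTX was present at strong and weak Menin peaks. In the highest decile of distal Menin peaks by −log10 q it was 28.1% with UTX (22.4 to 34.3%) and 2.70% without (0.329 to 9.42%). In deciles 6 to 9 it was 24.5% with UTX (21.0 to 28.2%) and 4.41% without (2.99 to 6.23%), and in deciles 1 to 5 it was 20.4% with UTX (15.6 to 25.9%) and 2.41% without (1.64 to 3.40%). No test was made, because peaks of 1 library are not replicates.

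The other regions lay in gene bodies or between genes. Inside a protein-coding gene with no internal start found within 1 kb lay 431 (40.2%), inside a noncoding gene 65 (6.06%) and between genes 323 (30.1%). These counts include the 28 regions of chromosome 18, which the start table does not cover, 20 of them in coding genes. In all, 63.7% of the regions had their summit inside a protein-coding gene (60.7 to 66.5%), against 55.03% of distal Menin peaks without UTX (52.9 to 57.2%). The 63.7% includes the regions at internal starts, nearly all of which lay inside coding genes. Leaving these out, the share of regions inside coding genes was no higher than 55.03%. Regions outside coding genes lay a median of 17717 bp from the nearest coding boundary, against 27301 bp for distal Menin peaks without UTX. Over 100 kb from any coding boundary lay 6.34% of the regions and 14.0% of the distal Menin peaks without UTX. The median UTX fold was 9.30 at internal starts, 7.66 elsewhere in coding genes, 7.76 in noncoding genes and 7.11 between genes. Median Menin folds ran from 6.60 at internal starts to 5.77 between genes.

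**Figure D2:**
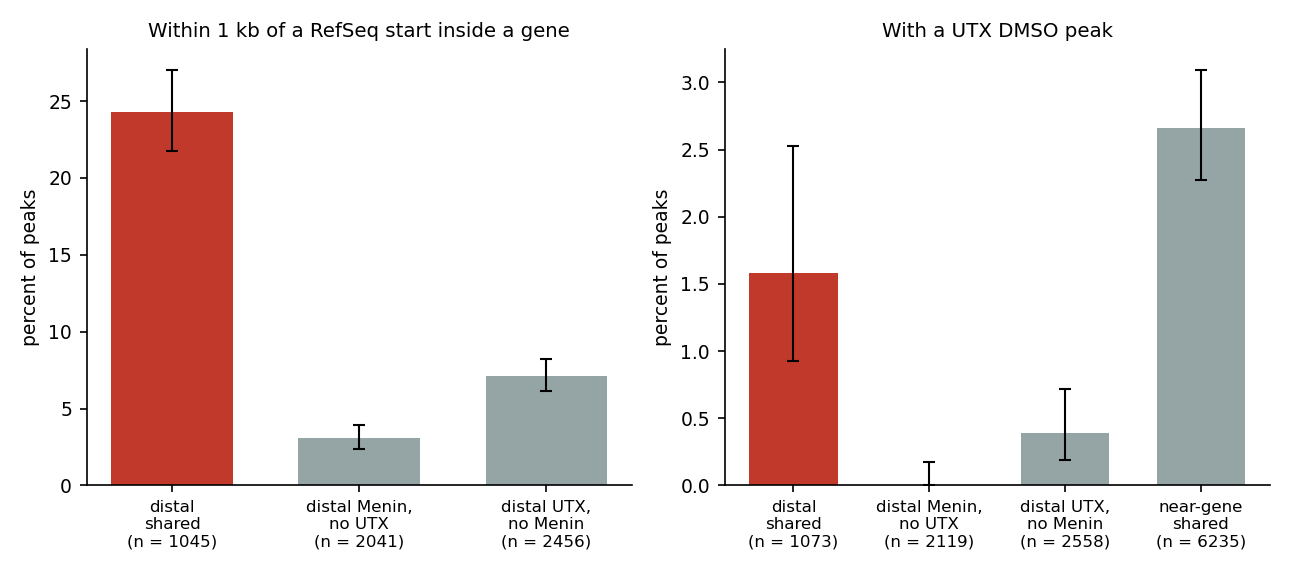
Percent of peaks within 1 kb of a RefSeq start inside a gene (left) and percent covered by a UTX DMSO peak (right), by class, with exact 95% intervals as error bars. The distal shared peaks stand at 24.3% and 1.58%, and distal Menin peaks without UTX at 3.09% and 0%. Classes were defined by UTX MI-503 peaks, so the shares on the right are not independent of the rule.

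At internal starts both proteins sat just upstream, as they did at the outer starts of genes. The UTX summit had a median position of −41.5 bp from the internal start, negative being upstream (quartiles −107 and 46.5 bp), and was upstream in 163 of 254 regions (64.2%). The Menin summit also had a median position of −41.5 bp, and was upstream in 160 (63.0%). At 2723 shared peaks of outer starts, the median positions were −40 bp for UTX and −43 bp for Menin. The 254 regions belonged to 232 genes, of which 227 were protein-coding. At 165 of the 232 genes (71.1%, 64.8 to 76.9%) neither a UTX nor a Menin summit lay within 1 kb of the gene's outer start. Both lay there in 46 genes (19.8%). For comparison, neither lay at the outer start of 79.1% of the 1950 genes with an internal start but no region there (77.2 to 80.9%), or of 59.6% of 16457 coding genes in the start table, so most genes of each kind lacked both. The internal start was a median of 8454.5 bp from the outer one.

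**Figure D3:**
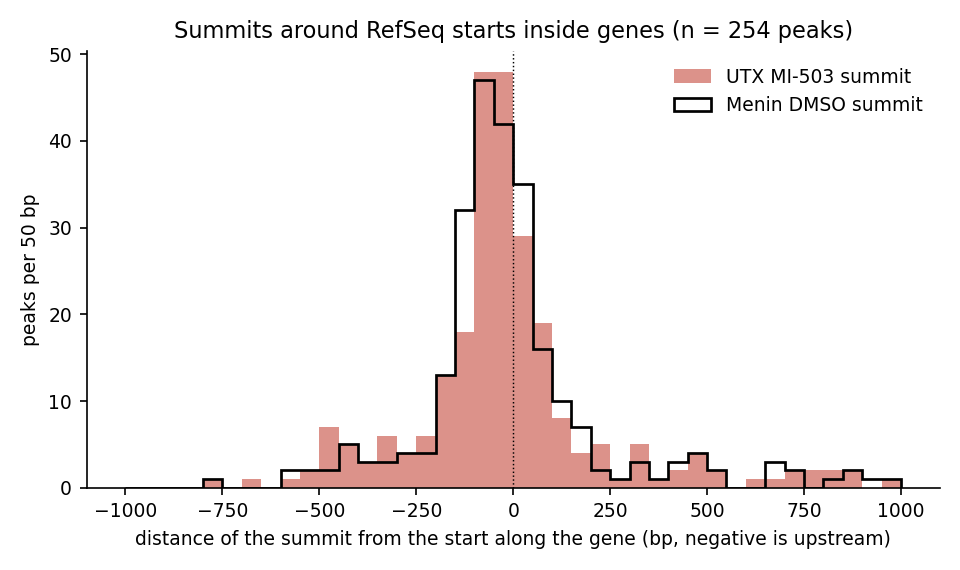
Number of regions per 50 bp by the distance of the UTX MI-503 summit (filled) and of the Menin DMSO summit (outline) from the nearest RefSeq start inside a gene, in bp along the gene, for the 254 regions within 1 kb. Both sets of summits peak just upstream of the start, with medians at −41.5 bp.

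Per1, which encodes a core repressor of the circadian clock, had the highest UTX fold of all the regions. Its peak at chr11:69098626-69099014 had a UTX MI-503 fold of 41.6 on 75 fragments and a Menin DMSO fold of 6.58 on 70 fragments, at a start 3841 bp inside the gene. Both proteins also had a summit at the outer Per1 start. Cnnm2, which encodes a membrane protein needed for magnesium handling, followed at chr19:46761144-46761815 with 35.8 for UTX and 22.6 for Menin, and neither protein had a summit at its outer start. The region of Hdac4, a class IIa histone deacetylase gene, had 29.7 for UTX and 10.2 for Menin. Cops3, a COP9 signalosome subunit gene, had 1 UTX peak of 30.1 over 2 Menin peaks of 6.88 and 4.79. Midn, which encodes midnolin, had 24.6 for UTX and 12.8 for Menin.

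Of the 4 highest Menin peaks at internal starts, that of Cnnm2 was also second in UTX fold. Pcgf5, which encodes a Polycomb repressive complex 1 subunit, had a UTX fold of 10.4 and the highest Menin fold of the regions, 38.2. Gatad2a, a gene of the NuRD remodelling complex, had 12.2 for UTX and 24.6 for Menin. Tef, a clock output transcription factor gene, was high in both, with 22.4 for UTX and 23.5 for Menin, and both summits lay over 400 bp upstream of its start, at 427 and 424 bp. Other genes with a region at an internal start, chosen after their values were seen, were the cyclin D3 gene Ccnd3 (17.2 for UTX, 9.31 for Menin, at a start 88416 bp inside the gene), Hif1a, which encodes the hypoxia factor (16.4 and 11.9), and the maintenance DNA methyltransferase gene Dnmt1 (16.5 and 7.40). Nfyc, which encodes a subunit of NF-Y itself, had 1 UTX peak of 16.8 over 2 regions with Menin folds of 5.70 and 5.79. Neither protein had a summit at the outer start of any of these 4 genes.

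The internal starts that carried a region were rich in CpG. Of 2910 RefSeq starts over 3 kb from every gene boundary, 237 (8.14%) had a region's Menin summit within 300 bp. Over windows from 250 bases before to 50 after the start, observed over expected CpG had a median of 0.776 at these 237 starts, 0.245 at the 2402 internal starts with no Menin or UTX summit within 1 kb, and 0.840 at 2988 outer starts with a shared peak. Median GC content was 62.3%, 49.0% and 62.7% in the same order. Where the ratio was at least 0.6, 29.8% of internal starts had a region (183 of 614, 26.2 to 33.6%), and where it was lower, 2.35% did (54 of 2296, 1.77 to 3.06%).

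Motifs were counted on both strands in the same windows, as letters and not as bound sites. Beside those spelled out below, the plot of motif shares uses CACGTG for the E-box, TGACGTCA for CRE, TTGCNNAA for C/EBP, AGGGGGC for the CTCF core and GAGGAAG for a PU.1 type ETS site, which shares letters with the ETS core. CCAAT was in 35.9% of windows at internal starts with a region (29.8 to 42.3%), 35.7% of those without a peak (33.8 to 37.7%), 47.4% of outer starts with a shared peak and 37.3% of all 31365 start windows. Since CpG differed between these sets, the starts with a ratio of at least 0.6 were also compared, a choice made after the data were seen. Among them CCAAT was in 35.0% of the 183 starts with a region (28.1 to 42.4%) and 21.4% of the 276 without a peak (16.7 to 26.7%), with median GC contents of 64.0% and 64.7%. In the same CpG-rich windows the NRF1 letters GCGCATGC were in 7.10% and 1.09%, and the YY1 letters AAGATGGCG in 5.46% and 0 of 276, which allows up to 1.33%. The ETS core GGAAGT was in 22.4% and 16.3%, with overlapping intervals.

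Letters of the GATA, RUNX and AP-1 motifs were less frequent in windows with a region. Over all windows, AGATAA, the GATA letters, was in 4.64% of internal starts with a region and 14.1% of those without a peak. TGTGGT, the RUNX letters, was in 10.5% and 19.8%, and TGANTCA, the AP-1 letters, in 4.22% and 9.62%. The shares over all start windows were 11.2%, 16.7% and 7.85%. Of the letters of myeloid factors, those of C/EBP were in 8.02% of windows with a region and 12.7% of those without a peak, while those of the PU.1 type were in 17.3% and 12.6%. In CpG-rich windows the intervals overlapped for all of these. There the GATA letters were in 4.37% of starts with a region and 6.88% of those without a peak, the RUNX letters in 8.20% and 11.2%, the AP-1 letters in 2.73% and 6.88%, and the PU.1 type in 14.8% and 10.1%. The C/EBP letters turned the other way, with 6.56% and 5.07%. Regions at internal starts whose window held CCAAT had a median UTX fold of 10.9 (92 regions), against 8.96 without it (162 regions). Their median Menin folds were 6.74 and 6.37, and the quartiles overlapped widely for both proteins.

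**Figure D4:**
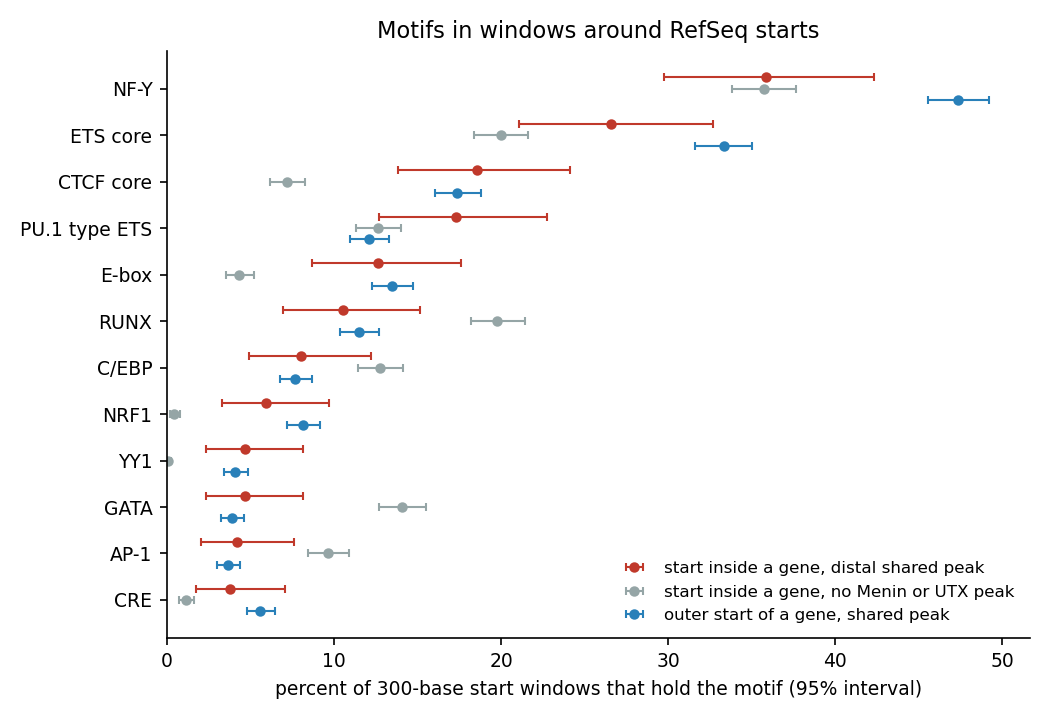
Percent of 300-base windows at RefSeq starts that hold each motif, with exact 95% intervals, for starts inside a gene with a distal shared peak (red), starts inside a gene without a Menin or UTX peak (grey) and outer starts with a shared peak (blue). The red points lie near the blue ones for NRF1, YY1, RUNX, GATA and AP-1, away from the grey ones, and between both for the ETS core. For NF-Y the red point lies at the grey one and below the blue, and for the PU.1 type above both. The grey starts had a median CpG ratio of 0.245, against 0.776 for the red.

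The peak lists that the rule did not use were short, with 8 peaks for Menin in MI-503 and 217 for UTX in DMSO, against 11195 for Menin in DMSO and 14231 for UTX in MI-503. They could therefore cover few of the regions, and the counts below describe the lists as much as the regions. Their peaks were also narrower, down to 62 and 127 bp against 179 bp in both long lists, and their pileups came in steps of 0.742 and 0.874 fragments, against 1 in the long lists. In MI-503, none of the 1073 regions had a Menin peak, and the share over all Menin DMSO peaks was 0.00911%. In DMSO, 17 regions had a UTX peak, which is 1.58% (0.926 to 2.52%), near the 1.69% over all Menin DMSO peaks. None of the 2119 distal Menin peaks without UTX had one, and 2.66% of shared peaks near genes did (2.28 to 3.09%). The former were picked for lacking a UTX MI-503 peak, so this contrast is not independent of the rule. The recovered background moved with these UTX DMSO peaks. Of the 17, 14 lay on input-rich ground. In 12 of them the Menin background was at least 10 times the lowest, as in 17 of all 1073 regions, and the part of the background in these peaks was not tested. Without those 17, 5 of 1056 regions had a UTX DMSO peak (0.473%, 0.154 to 1.10%), against 2.48% of shared peaks near genes (2.10 to 2.89%). The 1.69% over all Menin DMSO peaks includes peaks on such backgrounds, and no share without them is given.

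The regions with UTX in both treatments and a Menin background under 10 times the lowest were those of Per1, Mrps27, Park7, Pfkfb3 and Ogfrl1. Those of Per1 and Pfkfb3, at 4.19 and 3.49 times the lowest, still counted as input-rich. At Per1, UTX had a fold of 41.6 in MI-503 and 11.3 in DMSO. At Mrps27, a mitochondrial ribosomal protein gene, it had 30.5 in MI-503 and 8.63 in DMSO. Park7, the gene of the redox-sensing protein DJ-1, had 18.3 and 8.23 in MI-503 and DMSO, and Pfkfb3, a glycolysis regulator gene, 20.0 and 7.59. The Ogfrl1 region, 110289 bp from that gene, had 24.1 and 6.398. Folds of separate lists depend on each library's depth and are set side by side without a comparison. On backgrounds at least 10 times the lowest, the regions near Filip1l, Zc3h7a and Cdk8 had the highest UTX −log10 q of the whole set, with UTX MI-503 folds of 19.7, 23.7 and 18.3 but Menin folds of 2.50, 2.92 and 2.13. The Axin2 and Pex2 regions were of the same kind, so 5 of the 6 highest by UTX −log10 q sat on such ground, the exception being Per1.

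Away from internal starts, the leading regions lay in or near genes of varied function. The region with the best rank over both lists was inside Itpkb, which encodes an inositol trisphosphate kinase, at chr1:180387427-180387902, with 28.1 for UTX on 68 fragments and 33.9 for Menin on 171 fragments. It lay 37183 bp from the gene's boundary, and a second region in the gene had 11.6 and 8.08. A region 6455 bp from Trappc9, a vesicle trafficking gene, had 33.5 for UTX and 16.5 for Menin. The nearest annotated gene of the region with 34.5 and 12.4 was the microRNA gene Mir30d, 22086 bp away, and the nearest coding gene Zfat lay 104453 bp away. Also among the 10 best in both were regions near Slc38a2, a neutral amino acid transporter gene (24.1 for UTX and 16.9 for Menin), the cytochrome b5 reductase gene Cyb5r3 (23.8 and 13.9), the small GTPase gene Rhob (21.5 and 14.8), the kinase gene Mast3, at an internal start (21.3 and 12.1), and Ptpdc1, beside Mirlet7a-1 (30.6 and 16.97).

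A group of 5 other high Menin peaks away from internal starts had UTX folds from 8.43 to 13.7, on both sides of the upper UTX quartile of 11.3. Phf19, a Polycomb repressive complex 2 cofactor gene, had 10.4 for UTX and 27.7 for Menin. The region near Ccne1, the cyclin E1 gene, had 13.7 and 25.5. Glis2 had 12.496 and 23.1, the acetyl-CoA carboxylase gene Acacb 9.66 and 20.0, and the ceramidase gene Acer1 8.43 and 21.4.

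Within a distance often used to stitch enhancers, between 12 and 13 kb, of another region lay 149 of them (13.9%, 11.9 to 16.1%). Among distal Menin peaks without UTX, 9.77% of 2119 lay as near to another of their class (8.54 to 11.1%). For the regions, the share was 8.38% with a fold of at least 5 in both lists. It was 8.89% when the overlap had to cover at least 50% of each peak. Some groups were Menin peaks under 1 UTX peak, and whether groups are enhancers was not tested. There were 68 pairs, 3 groups of 3 and 1 group of 4. The group of 4 lay within 8861 bp inside Plec, the gene of the cytolinker plectin, with UTX folds of 7.11 to 18.6 and Menin folds of 5.04 to 21.0. The Plec region with the lowest Menin fold, 5.04, sat on input-rich ground. Stim1, which encodes a calcium sensor of the endoplasmic reticulum, held 3 within 875 bp, with UTX folds of 8.67 to 12.8 and Menin folds of 3.28 to 4.90. All 3 lay within 1 kb of the same internal start, and 2 of them under the same UTX peak. Kdm6b, the gene of a histone H3 lysine 27 demethylase related to UTX, held 3 in its body, with UTX folds of 6.55 to 7.90 and Menin folds of 3.44 to 4.73. Of the pairs, the tightest was near Nsd1, a histone H3 lysine 36 methyltransferase gene, where 1 UTX peak of 17.02 spanned Menin peaks of 4.41 and 3.75.

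The regions had 938 nearest coding genes, 113 of them with 2 or more regions. Cebpb, which encodes a myeloid transcription factor, was the nearest coding gene of 5, which lay 19632 to 74900 bp from it between genes. Their UTX folds were 5.47, 6.12, 7.11, 7.68 and 8.28, and their Menin folds in the same order 4.17, 5.12, 6.53, 5.92 and 6.50. None of these was high, and the group of 3 among them spanned 11547 bp. The Cebpb region with a Menin fold of 5.92 sat on input-rich ground. Zfp217 was also nearest to 5, with UTX folds of 5.25 to 14.8, and Ptma, the prothymosin alpha gene, to 4, with 7.71 to 30.9. The 5 nearest to Sfi1 all sat on input-rich ground, with Menin backgrounds 28.4 to 50.9 times the lowest and Menin folds of at most 2.25.

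Blood transcription factor, myeloid effector and signalling inhibitor genes and MLL fusion targets had larger shares of nearest genes than all coding genes did. By distance, the MLL fusion targets were near all coding genes, and several other lists had shares as large as the blood transcription factors. Of all protein-coding genes on these chromosomes, 4.54% were nearest to at least 1 region. Among 44 blood transcription factor genes the share was 29.5% (13 genes, 16.8 to 45.2%), among 31 myeloid effector genes 25.8% (8 genes, 11.9 to 44.6%) and among 36 known MLL fusion targets 22.2% (8 genes, 10.1 to 39.2%). It was 18.5% of 27 signalling inhibitor genes, 17.6% of 17 cell cycle inhibitor genes, 16.7% of 18 housekeeping genes, 11.5% of 26 cytokine receptor genes and 3.57% of 28 genes of other tissues, with wide intervals. The intervals of cytokine receptors (2.45 to 30.2%), cell cycle inhibitors, housekeeping genes and genes of other tissues include the share over all coding genes. Within 50 kb of a region lay 22.7% of the blood transcription factor genes, 38.7% of the myeloid effector genes, 11.1% of the MLL fusion targets and 27.8% of the housekeeping genes, against 10.7% of all coding genes. The shares of cytokine receptors, signalling inhibitors and cell cycle inhibitors were 26.9%, 25.9% and 23.5%, and that of other tissues 7.14%, with wide intervals. A raised share by distance was thus not particular to the blood and myeloid lists. Distal Menin peaks without UTX gave 29.5% for the blood transcription factors, 19.4% for the myeloid effectors and 9 of the 36 MLL fusion targets. They gave 29.6% for the signalling inhibitors and 23.1% for the cytokine receptors, above the shares of the regions. For cell cycle inhibitors they gave 11.8%, for housekeeping genes 11.1% and for genes of other tissues 7.14%. Over all coding genes, the share from distal Menin peaks without UTX was 8.59%. Longer spaces between genes also make a gene the nearest to more peaks, and their part was not tested.

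**Figure D5:**
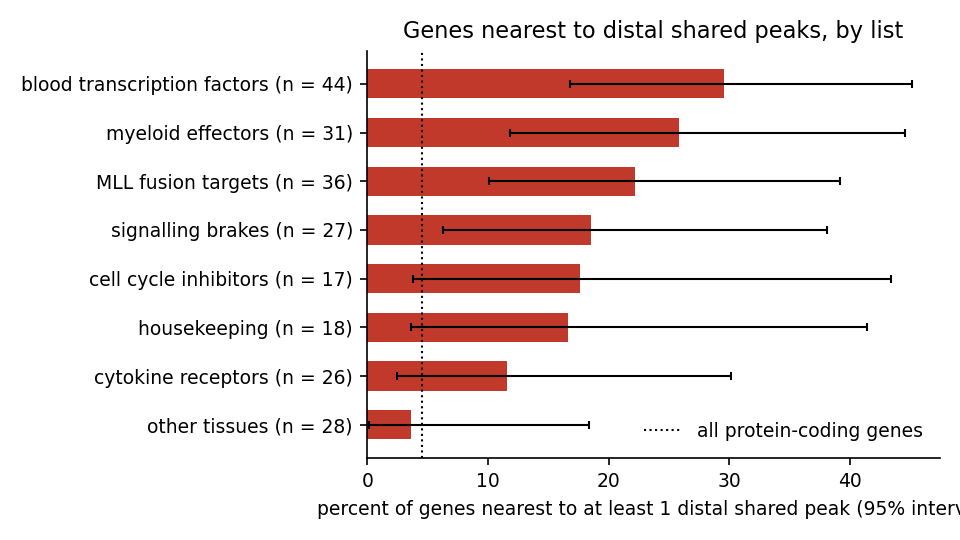
Percent of the genes of each list that are the nearest coding gene of at least 1 distal shared peak, with exact 95% intervals, and the share of all protein-coding genes as a dotted line. Blood transcription factors reach 29.5%, myeloid effectors 25.8% and genes of other tissues 3.57%, against 4.54% overall.

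Among the transcription factors, the strongest UTX values were 14.7 at Ets2, with a Menin fold of 10.8, 14.2 inside Ets1, with 7.18, and 16.6 at 7448 bp from Nr4a1, with 12.4. Nr4a1 was chosen after its values were seen, and its second region, at an internal start, had 7.33 for UTX and 4.89 for Menin. The Klf4 region, 427730 bp from the gene, had 6.02 and 5.21. The Zeb2 region had 12.2 for UTX and 7.98 for Menin, the Runx1 region 8.997 and 6.02, and the Cebpe region 8.76 and 6.10. The Ets2 and Runx1 regions sat on input-rich ground, each with a Menin background 3.84 times the lowest. The Gata2 region had 7.66 for UTX and 12.9 for Menin. Of the MLL fusion targets, Mef2c had 8.41 and 9.69, Myb 8.27 and 5.71, Reep3 15.8 and 6.25, Supt3 7.11 and 6.11 and Hmga2 5.72 and 4.14. The Cdk6 region lay 188661 bp from the gene, with 5.66 and 6.21.

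The myeloid surface and granule genes had values from below the lower to above the upper quartile of all regions. Ptprc, which encodes CD45, was nearest to 2 regions, 1 between genes at 311198 bp and 1 inside the gene at 39151 bp from its boundary, with UTX folds of 8.62 and 6.90 and Menin folds of 15.3 and 14.8. Cd33 had 9.03 for UTX and 9.34 for Menin, the integrin gene Itgb2 9.14 and 7.16, the oxidase subunit gene Ncf1 11.9 and 6.37, the alarmin gene S100a8 7.33 and 3.24 and the granule protein gene Ngp 5.25 and 7.27. Il17ra was nearest to 3 regions, with UTX folds of 6.47 to 10.9 and Menin folds of 3.92 to 13.2. Csf3r, the granulocyte colony-stimulating factor receptor gene, was nearest to 1, with 8.84 for UTX and 7.29 for Menin. The Csf2ra region sat on input-rich ground, with a Menin fold of 1.79, and so did the S100a8 region. Among genes that restrain growth, Cdkn1a, which encodes p21, had 14.2 for UTX and 5.67 for Menin, and Ptpn1 had 13.1 over Menin peaks of 5.53 and 3.85. Snap25, a synaptic gene, was the 1 gene of other tissues, with 6.32 and 4.05.

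Values just inside and just outside the distance limit overlapped. Those nearest the limit were at Fam172a (3002 bp), with 8.76 for UTX and 5.40 for Menin, Maml3 (3003 bp) with 9.30 and 6.30, H2-T24 (3022 bp) with 9.55 and 5.85, Mtfr2 (3031 bp) with 13.8 and 6.86, and near Eif4enif1 (3038 bp from a pseudogene) with 6.27 and 1.71. Just outside were Slc17a5 (2971 bp) with 12.01 and 6.65, a peak near Lefty2 (2983 bp from a predicted gene) with 22.7 and 9.95, Fosl1 (2986 bp) with 6.62 and 6.48, Rfx3 (2991 bp) with 5.91 and 7.54, and a peak nearest to Samd9l (2995 bp from a predicted gene) with 16.04 and 1.61. The peaks near Eif4enif1, Lefty2 and Samd9l sat on input-rich ground.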

How the data were processed

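The authors called chromatin immunoprecipitation peaks using MACS2 on mm10, per the submitters' processing notes, which give no version. Fixation took 5 minutes in 1% paraformaldehyde and sonication 14 minutes, per the labels' protocols. Neither the aligner nor the q threshold is given in the sources used here. Of 30 libraries in the labels, 4 had peak lists used here, 1 per condition, and 26 were not analysed here. The deposited fold is a ratio of pileup to background with 1 added to each, the deposited −log10 values are those of the p-value and q-value at the summit, and the deposited score is 10 times −log10 q, cut to a whole number, in every peak.

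Pileups and backgrounds were solved from the deposited fold and −log10 p. Pileups of Menin DMSO and UTX MI-503 came out as whole fragments, within 0.01, in 100% of up to 300 peaks tried. Total read depth is unknown. Overlap meant 1 shared bp. Gene boundaries, starts and start windows came from RefSeq, GRCm38.p6, the assembly of mm10. The start table has none on chromosome 18. Shares carry exact Clopper-Pearson 95% intervals. No p-value was computed, and a p-value deposited by the authors was used only through −log10 p. Predicted genes were counted but not named. Peaks are named by the nearest coding gene.

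Members and lists were chosen with earlier results of these data known. Named were the 10 highest regions in UTX MI-503, in Menin DMSO and in both, regions with a UTX DMSO peak, the 5 largest clusters, up to 8 genes per list and the 5 on each side of the limit, as far as they are printed. Some named regions are not reported here. Motifs in windows around summits were planned, but the genome sequence was not used here, so RefSeq start windows took their place. On simulated peaks, overlaps and distances matched direct counting in 100% of 10982 peaks and 300 positions, and backgrounds were recovered in 100% of 500. Python 3.11.15, numpy 2.4.6, pandas 2.3.3, scipy 1.17.1 and matplotlib 3.10.9 were used.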

Additional observations from a re-analysis of the deposited data

Results flagged for a closer look

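On chromosome X, which the definition of the regions leaves out, 11 distal Menin DMSO peaks had a UTX MI-503 peak by the same distance and overlap, of 41 distal Menin peaks there. Their median fold was 7.66 for UTX and 6.50 for Menin. The highest was 4202 bp from Syp, a synaptic vesicle gene, with 22.4 for UTX and 9.37 for Menin, and another was 5116 bp from a boundary of Taf1, with 8.76 and 8.996.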

How the results depend on the processing

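Of 92 values recomputed under an alternative, 62 stayed within the interval of the main value, or within 1.5 times for the number of regions, and 30 did not. With −log10 q of at least 5 in both lists, the share of distal Menin peaks with UTX was 37.8%, and the median folds were 8.32 for UTX and 6.44 for Menin. With fold of at least 5 in both, there were 692 regions, the share with UTX was 46.7%, the share with a UTX DMSO peak 0.723%, clustered by the main distance 8.38% and at internal starts 28.4%, and the medians were 8.76 and 7.35. When the overlap had to cover at least 50% of each peak, the share with UTX was 28.2% and the clustered share 8.89%. With a limit of 1 kb there were 1624 regions, with 37.9% of distal Menin peaks shared, 66.6% inside a coding gene, 18.2% clustered, 29.8% at internal starts and a median UTX fold of 8.21. With a limit of 10 kb there were 465 regions, with 27.2% shared, 9.03% clustered and 17.8% at internal starts. With coding gene boundaries alone, 35.9% were shared, 57.5% lay inside a coding gene and 16.8% were clustered. Within 1 kb of a RefSeq start lay 30.6%, which here can include outer starts of noncoding genes. Without input-rich ground, 0.306% of regions had a UTX DMSO peak. Within 5 kb of another lay 10.4%, and within 300 bp of an internal start 20.4%. Within 50 kb of a region lay 10.7% of all coding genes, and the share of MLL fusion targets was then 11.1%, against 22.2% by nearest gene.

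The internal start values, their alternatives and the limit of 10 times the lowest background were chosen after seeing the data. The planned shorter and UTX-centred sequence windows were not run. No paired analysis was possible because each condition had 1 library. At a median of 16 UTX fragments, weak sites are not detectable at this depth, and total depth is unknown.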

Other observations

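Of the 1073 regions, 22 (2.05%) had a microRNA gene as the nearest annotated gene, 253 (23.6%) a long noncoding RNA gene and 690 (64.3%) a coding gene. Beside Mir30d and Mirlet7a-1, these microRNA genes included Mir23a, with regions 9998 and 10810 bp away that had UTX folds of 15.1 and 9.36 and Menin folds of 4.77 and 4.82. Mir15a had a region 16790 bp away with 14.8 for UTX and 3.58 for Menin. Mirlet7a-1, a member of the let-7 family of microRNAs that restrain growth genes, had a second region 7726 bp away, where the same UTX peak of 30.6 covered a Menin peak of 8.89. Mllt10, the gene of AF10, a known partner in MLL fusions, held 2 regions within 1 kb of an internal start, with UTX folds of 6.07 and 4.93 and Menin folds of 6.89 and 4.14. These genes were chosen after their values were seen.

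By chromosome, the share of distal Menin peaks with UTX ran from 25.9% on chromosome 16 to 44.8% on chromosome 11, which held 121 of the regions.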
